A study of Mus musculus with 32 samples.

Results

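In liver macrophages, 658 regions of open chromatin stood alone. Each was a Kupffer cell peak on chromosomes 1 to 19 that overlapped no endothelial cell peak, and no other peak of either cell type lay within 50 kb of its edges. They were chosen by position: the call in 1 cell type, the missing call in the other, and the empty 50 kb on each side are what defined them. They made up 0.803% of the 81942 Kupffer-only peaks of these chromosomes (95% exact binomial interval 0.743% to 0.866%), and the 2 peak lists together held 229137 peaks.

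The peaks come from ATAC-seq, an assay that inserts sequencing adapters into accessible DNA with a transposase, of endothelial and Kupffer cells isolated from livers of male C57BL/6J mice on normal chow. The labels describe 32 libraries, 4 for each combination of cell type, genotype (WT or REV-ERB a/b double knockout) and time (ZT10 or ZT22, hours after lights on). Per the series' design text, the knockout removes both REV-ERBs, repressors of the circadian clock, from hepatocytes of adult mice, and not from the cells profiled here. The sources used here do not say how the genes were deleted or whether animals were pooled. The authors deposited 1 list of nucleosome-free peaks per cell type. By its name, each list was taken to be built from libraries of that cell type. Which of these libraries entered it, and how they were merged, is not given. A list holds only chromosome, start and end, so no value below has a replicate, the depth is unknown, and the effects of genotype and time on these peaks were not analysed here.

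Kupffer cells line the sinusoids of the liver, where they take up bacteria, debris and worn red cells. Their identity rests on macrophage lineage factors that open enhancers, and enhancers may lie far from the gene they act on. A nucleosome-free peak marks a stretch of DNA from which a nucleosome has been displaced, as at an active promoter, an enhancer or an insulator; around active genes such peaks often lie in clusters. The positions are on the mouse build mm9. The gene and promoter tables at hand are on GRCm38, so genes, sequences and motifs of these peaks, and the cell types' marker genes, were not analysed here.

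Kupffer-only peaks were the commonest kind of site across the autosomes and a minority among isolated sites. Peaks of both lists that overlap by at least 1 bp were counted as 1 shared site. Of 170850 sites, 48.0% were Kupffer-only, 21.9% endothelial-only and 30.2% shared. Of the 2137 sites with no other within 50 kb, 30.8% were Kupffer-only (interval 28.8% to 32.8%), 48.0% endothelial-only (45.8% to 50.1%) and 21.2% shared (19.5% to 23.0%). The 658 Kupffer-only peaks thus stood beside 1025 isolated endothelial-only peaks and 454 isolated shared sites. Among restricted sites, those of 1 cell type only, the Kupffer-only part was 68.7% overall and 39.1% where sites were isolated (36.8% to 41.5%). The isolated sites were chosen by position, and the cause of the difference between these shares was not tested.

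The decline was gradual and began well inside 50 kb. Kupffer-only peaks were 71.5% of restricted sites whose nearest other site lay within 1 kb (71.2% to 71.9%) and 68.9% at 1 to 5 kb (68.4% to 69.3%). The share was 65.4% at 5 to 20 kb (64.7% to 66.1%) and 54.6% at 20 to 50 kb (53.0% to 56.2%). Beyond the threshold it was 40.9% at 50 to 100 kb (37.8% to 44.0%), 37.1% at 100 to 200 kb (32.5% to 41.9%) and 36.0% above 200 kb (30.4% to 41.9%). The last 3 intervals overlapped. Shared sites went from 35.2% of all sites within 1 kb to 20.8% at 20 to 50 kb and 21.2% above 200 kb.

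**Figure D1:**
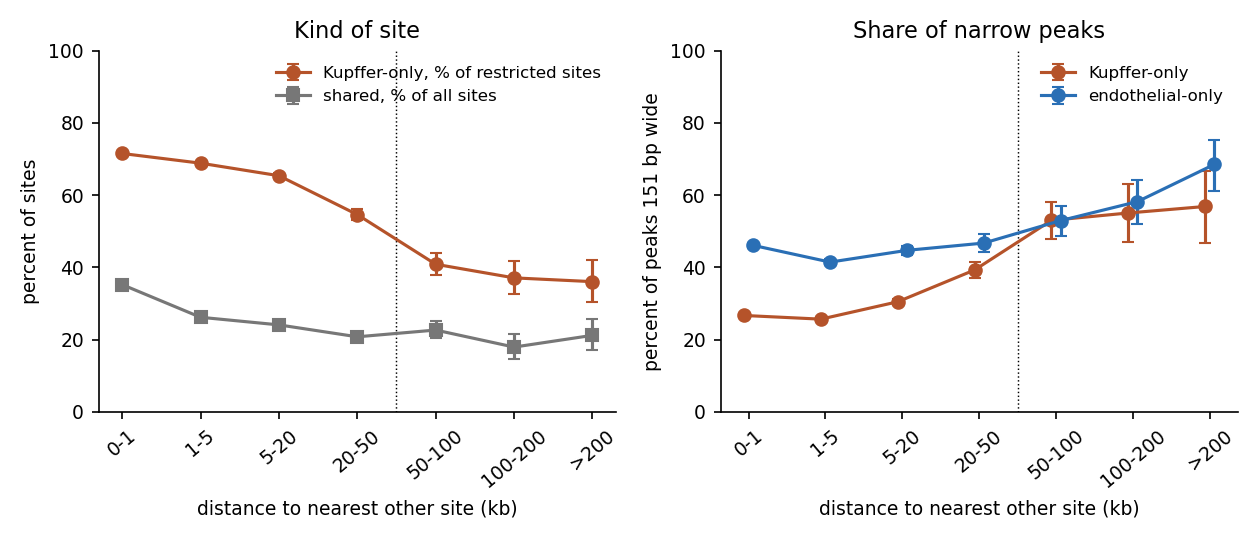
Left, Kupffer-only sites as a percentage of restricted sites, and shared sites as a percentage of all sites, by the distance in kb to the nearest other site; right, the percentage of restricted peaks that were exactly 151 bp wide. Points are shares over all sites of a class with exact 95% binomial intervals, and the dotted line marks 50 kb: the Kupffer-only share went from 71.5% to 36.0% and the share of 151 bp among Kupffer-only peaks from 26.7% to 56.9%.

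Which peaks counted as neighbours changed the balance between the cell types. With only Kupffer peaks counted for either kind, the Kupffer-only part of isolated restricted peaks was 24.7%, and with only endothelial peaks counted it was 75.1%. Each of these settings asks more of one kind than of the other. When each kind was held to its own list, 1105 Kupffer-only peaks had no other Kupffer peak within 50 kb and 1593 endothelial-only peaks had no other endothelial peak, which gave 41.0%. When each was held to the other list, 4814 Kupffer-only peaks had no endothelial peak within 50 kb and 3368 endothelial-only peaks had no Kupffer peak, which gave 58.8%. As a share of their own kind, isolated peaks were fewer among Kupffer-only than among endothelial-only peaks in both of these settings, 1.35% against 4.26% by own list and 5.87% against 9.01% by the other list. The Kupffer list is the longer one, with 134654 autosomal peaks against 89631. The part of list length in these shares was not tested.

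Isolated Kupffer-only peaks were narrow. Width played no part in their choice, and 356 of the 658, or 54.1%, were exactly 151 bp wide (50.2% to 58.0%), the smallest common width of both lists. Among the other 81284 Kupffer-only peaks this share was 27.2% (26.9% to 27.6%). The median width was 151 bp (quartiles 151 and 204 bp) against 194 bp (151 and 224 bp). At the other end, 48 isolated peaks, or 7.29%, reached 250 bp (5.43% to 9.56%), against 12.0% of the other Kupffer-only peaks (11.8% to 12.2%). Among peaks above 151 bp the sets were close, with medians of 206 bp for the 302 isolated peaks (quartiles 184 and 233 bp) and 210 bp for the others (189 and 236 bp). How the authors set peak width and merged libraries is not given, so the origin of the 151 bp width was not tested.

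Isolated sites of the other kinds were narrow too. Of isolated endothelial-only peaks 57.1% were 151 bp wide (54.0% to 60.1%), against 44.3% of the other endothelial-only peaks (43.8% to 44.8%). The intervals of isolated Kupffer-only and isolated endothelial-only peaks overlapped, whereas those of the remaining restricted peaks of the 2 cell types lay far apart. Isolated shared sites, found in both cell types, held 458 Kupffer peaks, of which 70.7% were 151 bp wide (66.3% to 74.9%). In shared sites that were not isolated it was 23.6% of Kupffer peaks (23.2% to 23.9%). A Kupffer peak in an empty stretch was therefore more often 151 bp wide if it was shared than if it was Kupffer-only, the reverse of the order elsewhere.

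**Figure D2:**
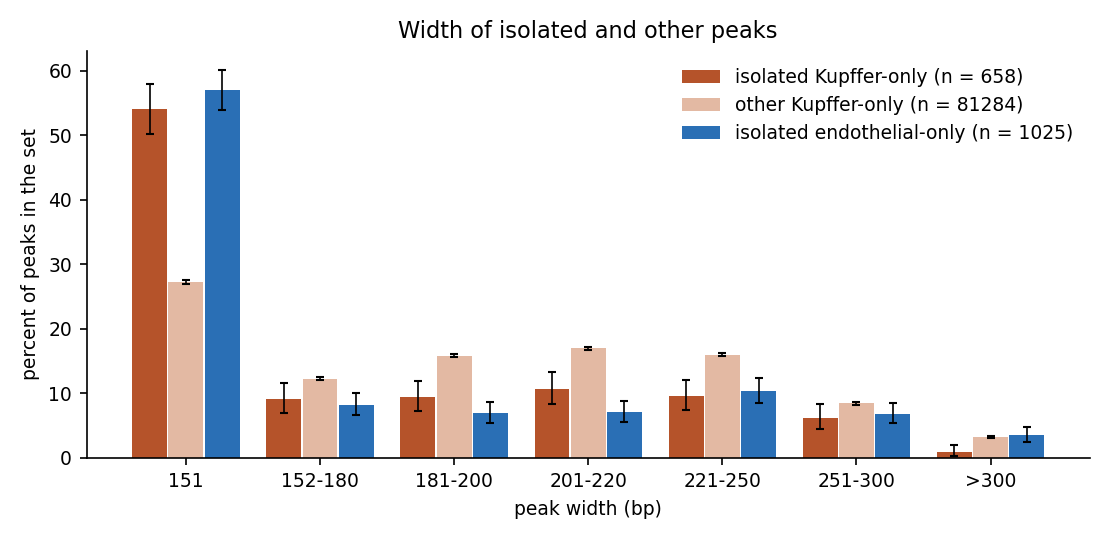
Width of isolated Kupffer-only, other Kupffer-only and isolated endothelial-only peaks; bars give the percentage of each set in a width class in bp, and error bars are exact 95% binomial intervals. The bars at 151 bp stand at 54.1%, 27.2% and 57.1%, and in each class from 152 to 250 bp the other Kupffer-only peaks have the tallest bar.

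The share of narrow peaks among isolated peaks did not differ beyond its intervals between poorly and better populated regions. The 151 bp share was 50.3% for the 157 isolated peaks with under 10 other sites in the surrounding 500 kb on each side (42.2% to 58.4%). It was 57.3% for the 274 with 10 to 49 (51.2% to 63.2%) and 52.9% for the 227 with 50 or more (46.1% to 59.5%), with overlapping intervals. Across the 658 peaks, width and the distance to the nearest other peak had a Spearman coefficient of -0.047, given as a description. By the kind of the nearest site, 48.9% of those nearest to a Kupffer-only site were 151 bp wide (43.3% to 54.5%), 56.5% of those nearest to an endothelial-only site (49.5% to 63.4%) and 62.7% of those nearest to a shared site (53.9% to 70.9%). These 3 intervals overlapped one another, the first and last only barely. Overlap does not show that the shares are equal, and a difference between the kinds was not tested.

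Most isolated peaks lay not far beyond the threshold. The distance to the nearest peak had a median of 83.5 kb (quartiles 60.7 and 142 kb) and ran from 50.1 to 1291 kb. It exceeded 100 kb for 260 peaks (39.5%), 200 kb for 102, 500 kb for 24 and 1000 kb for 5. The 3 peaks just inside the threshold, at chr12:37308982-37309132, chr5:147939555-147939705 and chr8:86938159-86938335, had their nearest neighbours at 50.051, 50.062 and 50.189 kb. The 3 Kupffer-only peaks just outside it had theirs at 50, 49.91 and 49.902 kb, on chromosomes 7, 10 and 13. The one on chromosome 7 lay at exactly 50 kb, which was counted as within the distance.

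The nearest Kupffer peak lay at a median of 95.7 kb (quartiles 64.2 and 182 kb) and the nearest endothelial peak at 107 kb (70.9 and 215 kb). An endothelial peak was the nearer for 270 of the 658, or 41.0% (37.2% to 44.9%). For isolated endothelial-only peaks it was the nearer in 56.8% of cases (53.7% to 59.8%). Endothelial peaks were over 200 kb away for 181 isolated Kupffer-only peaks and over 1000 kb away for 11.

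**Figure D3:**
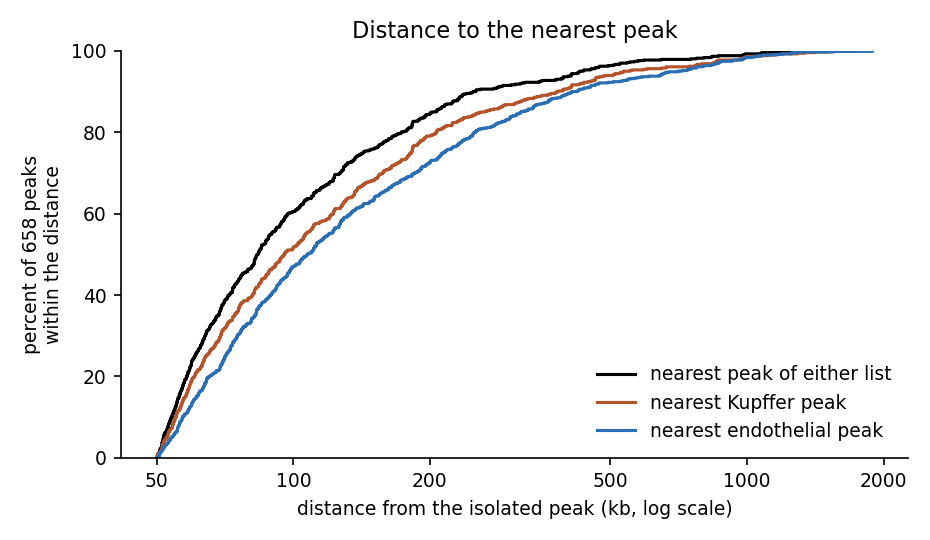
Cumulative percentage of the 658 isolated Kupffer-only peaks (vertical axis) whose nearest peak of either list, nearest Kupffer peak or nearest endothelial peak lay within the distance on the horizontal axis (kb, log scale). All 3 curves start just above 50 kb by the choice of peaks, and their medians are 83.5, 95.7 and 107 kb.

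The empty stretch around an isolated peak, measured between the neighbours on both sides, had a median of 301 kb (quartiles 180 and 577 kb) over the 654 peaks with a neighbour on each side. It was over 1 Mb for 81 peaks and reached 3458 kb. The longer of the gaps on either side was a median of 1.81 times the shorter, a ratio that cannot be below 1. On the autosomes, 7518 gaps between neighbouring sites were longer than 50 kb, and an isolated Kupffer-only peak bounded 1240 of them (16.5%). It bounded 155 of the 488 gaps over 500 kb (31.8%) and 52 of the 160 gaps over 1000 kb (32.5%). An isolated peak has a long gap on both sides by definition, so these shares are descriptions. Whether sequence that cannot be aligned lies within the gaps was not tested.

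The 10 peaks farthest from any other were spread over 8 chromosomes, and 7 of them were 151 bp wide. Of the 100 most isolated peaks 57 had this width, near the 54.1% of all 658. The most isolated lay at chr4:77902081-77902231, a peak of 151 bp, with a shared site 1291 kb to its left and a Kupffer-only site 1746 kb to its right. At chr12:49529361-49529511 the gaps were 1255 and 2083 kb, with an endothelial-only site at either end. A second peak of chromosome 4, at chr4:17321109-17321259, had a Kupffer-only site at 1161 kb and a shared site at 1917 kb. None of these 3 peaks was wider than the smallest common width.

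The next 2 peaks also had over 1000 kb on each side. The peak at chr17:93353839-93353989 lay 1079 kb from an endothelial-only site and 1702 kb from a shared one. The peak at chr6:80252041-80252201, 161 bp wide, lay 1070 kb from a Kupffer-only and 1940 kb from an endothelial-only site. The remaining 5 had their nearest neighbour at 839 to 991 kb. They were chr11:92238491-92238641, chr8:53536157-53536307, chr9:81526249-81526436, chr15:15032060-15032214 and chr15:47771947-47772097. The last of these, between endothelial-only sites 2619 and 839 kb away, sat in the longest empty stretch around any of the 658. In 8 of the 10, an endothelial-only site stood at 1 or both ends of the stretch. Such ends were common among all isolated Kupffer-only peaks too. Of the 654 with a neighbour on each side, 76 had endothelial-only sites at both ends. A further 170 had an endothelial-only site opposite a Kupffer-only one, and 114 had it opposite a shared one. Whether the 10 peaks differ from the rest in this was not tested.

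The 10 widest isolated peaks measured 293 to 388 bp, and their nearest neighbours lay 51.9 to 225 kb away. The widest, at chr5:81135740-81136127, measured 388 bp and had Kupffer-only sites at 894 and 112 kb. Within 500 kb on each side it had 21 Kupffer-only, 1 endothelial-only and 3 shared sites. The peak at chr8:111045905-111046275, 371 bp wide, lay in a populated region with 71 Kupffer-only, 31 endothelial-only and 32 shared sites around it. The peak at chr1:5498605-5498952, 348 bp wide, had only 2, 4 and 4. The surroundings of these 3 wide peaks thus differed widely.

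The other wide peaks were chr18:79378157-79378492 (336 bp), chr1:168561985-168562298 (314 bp), chr8:76373764-76374067 (304 bp), chr6:130042574-130042872 (299 bp), chr7:50235599-50235897 (299 bp), chr2:14865744-14866041 (298 bp) and chr2:67216607-67216899 (293 bp). The peak on chromosome 6 had 17 Kupffer-only sites and no endothelial-only or shared site in the 500 kb on each side. The last peak on chromosome 2 had the opposite surroundings, with no Kupffer-only, 9 endothelial-only and 3 shared sites.

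Isolated Kupffer-only peaks lay in regions with fewer sites than those around other Kupffer-only peaks, although not all in sparse chromatin. Within 500 kb on each side they had a median of 30 other sites (quartiles 10 and 64), against 123 (88 and 163) around the other Kupffer-only peaks; the innermost 50 kb is empty by choice. No site at all was found within that distance of 24 isolated peaks, and 157, or 23.9%, had fewer than 10. At the other end, 22 peaks, or 3.34%, had 123 sites or more around them, the median of the other Kupffer-only peaks, and the highest number was 229. By fixed windows of 1 Mb, 87 of the 658 lay in windows with at most 5 sites and 69 in windows with more than 100.

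Restricted sites around isolated Kupffer-only peaks were Kupffer-only about as often as all autosomal restricted sites, of which 68.7% were. Around isolated endothelial-only peaks they were Kupffer-only less often. In the 500 kb on each side, 69.9% of restricted sites summed over the 658 peaks were Kupffer-only, against 60.8% around isolated endothelial-only peaks, 64.6% around isolated shared sites and 72.5% around the other Kupffer-only peaks. The medians were 15 Kupffer-only, 6 endothelial-only and 7 shared sites. Kupffer-only sites, the larger part of all autosomal restricted sites, outnumbered endothelial-only ones around 479 of the 658. The reverse held for 126, and the numbers were equal for 53. There was no shared site around 103 of the peaks, or 15.7%. This also held for 158 of the 1025 isolated endothelial-only peaks and for 57 of the 454 isolated shared sites. Among the other 81284 Kupffer-only peaks it held for 327. Neighbouring regions overlap and sites are counted more than once, so no interval is given.

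**Figure D4:**
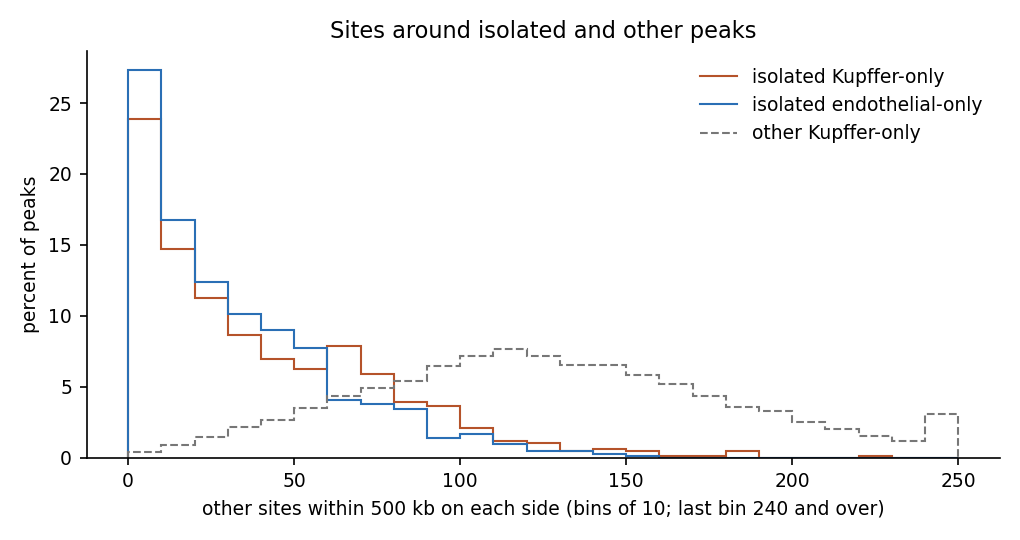
Distribution of the number of other sites within 500 kb on each side (horizontal axis, bins of 10) for isolated Kupffer-only, isolated endothelial-only and other Kupffer-only peaks, as a percentage of each set (vertical axis). Both isolated sets are highest below 10 sites, at 23.9% and 27.3%, and their medians are 30 and 24 against 123 for the other Kupffer-only peaks.

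The nearest site of an isolated Kupffer-only peak, which always lay across a gap longer than 50 kb, was most often Kupffer-only. The nearest site was Kupffer-only for 317 of the 658 isolated Kupffer-only peaks, or 48.2% (44.3% to 52.1%), endothelial-only for 31.5% (27.9% to 35.2%) and shared for 20.4% (17.4% to 23.6%). Over all autosomal sites these kinds made up 48.0%, 21.9% and 30.2%, but most of those sites lay closer to another. The ends of all gaps longer than 50 kb were 5962 Kupffer-only, 5538 endothelial-only and 3536 shared. Set against these ends, the nearest sites of isolated Kupffer-only peaks were more often Kupffer-only and less often endothelial-only. Of isolated endothelial-only peaks, 47.5% were nearest to an endothelial-only site (44.4% to 50.6%) and 31.3% were nearest to a Kupffer-only site (28.5% to 34.3%). Around the other Kupffer-only peaks the nearest site was Kupffer-only in 59.7% and endothelial-only in 12.5% of cases. The shares for isolated Kupffer-only peaks were close to those of all Kupffer-only sites at the end of a long gap, a set that includes the isolated ones. Over all gaps longer than 50 kb, the site across from a Kupffer-only site was Kupffer-only in 47.9% (46.6% to 49.1%) and endothelial-only in 29.7% of cases (28.6% to 30.9%).

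The 2 sides of a peak, which have no biological order, were not alike. The left neighbour was Kupffer-only in 47.1% (43.2% to 51.0%) and shared in 18.9% of cases (16.0% to 22.1%). The right neighbour was Kupffer-only in 41.5% (37.7% to 45.3%) and shared in 26.1% (22.7% to 29.6%). The intervals for shared neighbours did not overlap, a difference as large as several of those given here between kinds of peaks. Taking both sides at once, 140 of 654 peaks stood between a pair of Kupffer-only sites, 76 between a pair of endothelial-only sites and 170 between 1 of each. The remaining 268 had a shared site on at least 1 side: 130 with a Kupffer-only site opposite, 114 with an endothelial-only site opposite and 24 with another shared site.

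Of the 658 peaks, 367 had an isolated site of some kind as a direct neighbour, or 55.8% (51.9% to 59.6%). The choice favours this, since the gap between such neighbours is over 50 kb by the rule. Most stood singly with respect to their own kind: 522 had no isolated Kupffer-only peak beside them, 114 formed pairs, and 22 formed 7 runs of 3 or more. The longest run of isolated sites of any kind that held one of them counted 9 sites over 2.40 Mb, at chr1:146253858-148653260, with 3 Kupffer-only, 5 endothelial-only and 1 shared site. It was chosen after the values were seen. Neighbouring isolated Kupffer-only peaks on a chromosome were a median of 2.09 Mb apart (quartiles 0.802 and 4.94 Mb), with 51.3 kb and 28.0 Mb as extremes.

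The single run of 4 lay at chr5:126303316-127440943. Its peaks were all 151 bp wide and were separated by gaps of 636, 85.0 and 416 kb, with a Kupffer-only site 288 kb to the left and an endothelial-only site 241 kb to the right. The run of 3 at chr17:18110550-19105689 ended at an empty stretch of 1976 kb, the longest beside any run, and had shared sites at both outer ends. At chr6:129826647-130904487 a run of 3 held peaks of 281, 299 and 151 bp between Kupffer-only sites, including 1 of the 10 widest. The runs thus held narrow and wide peaks alike.

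The tightest run, at chr7:60688892-60807160, held 3 peaks of 207, 209 and 281 bp within 118 kb, beyond a gap of 925 kb. The 1 Mb window around it, from 60000001 to 61000000, contained 6 sites, all of them Kupffer-only. At chr15:28956111-29754249, 3 peaks spread over 798 kb had gaps of 605 and 348 kb outside them. The remaining runs, at chr5:26492461-26864523 and chr14:10831146-11041861, spanned 372 and 211 kb. In windows of 1 Mb, 559 of the 2337 windows with a site held an isolated Kupffer-only peak. Of these, 473 held 1 and 13 held 3, the highest number.

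Kupffer-only sites, isolated ones included, made up less of the restricted sites in thinly populated windows of 1 Mb than in full ones. They were 71.3% of restricted sites in windows with more than 100 sites (71.0% to 71.7%) and 66.8% in windows with 51 to 100 (66.3% to 67.3%). In windows with 21 to 50 sites they were 62.1% (61.2% to 63.0%), and in those with 11 to 20 they were 53.1% (51.0% to 55.2%), level with the 53.6% of windows with 6 to 10 (49.8% to 57.3%). The 267 windows with at most 5 sites held 216 Kupffer-only and 291 endothelial-only sites, or 42.6% Kupffer-only (38.3% to 47.0%). Of those 216 Kupffer-only sites, 87 were isolated.

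Chromosome 14 was richest in isolated Kupffer-only peaks. It held 48, or 1.42% of its 3370 Kupffer-only peaks (1.05% to 1.88%). Chromosome 18 followed with 33 or 1.27% (0.876% to 1.78%) and chromosome 15 with 38 or 1.03% (0.730% to 1.41%). The lowest shares were those of chromosome 11, with 25 or 0.410% (0.266% to 0.605%), chromosome 2, with 37 or 0.537% (0.378% to 0.739%), and chromosome 7, with 28 or 0.588% (0.391% to 0.849%). The intervals of chromosomes 14 and 18 lay above the autosomal 0.803% and those of chromosomes 11 and 2 below it. Chromosome 11 was also the most densely populated, with 101 sites per Mb, and chromosome 14 was among the sparsest, with 57.5. Yet chromosome 3, the sparsest with 56.6, had a share of 0.827%, near the autosomal value (0.573% to 1.15%). Per length, isolated Kupffer-only peaks ranged from 1.88 per 10 Mb on chromosome 7 to 3.97 on chromosome 14. Over the 19 chromosomes this number per length had a Spearman coefficient of -0.14 with the density of all sites. That coefficient does not cover the share of Kupffer-only peaks ranked above, whose relation to site density was not computed.

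The balance with isolated endothelial-only peaks had wide intervals on single chromosomes. Isolated Kupffer-only peaks were the majority of isolated restricted peaks on chromosome 19 alone, with 19 against 13, or 59.4% (40.6% to 76.3%). They were fewest on chromosome 16, with 20 against 49, or 29.0% (18.7% to 41.2%). The interval of chromosome 19 lay above the autosomal 39.1% and that of chromosome 16 included it. Chromosome 18 had the lowest share of 151 bp peaks, 36.4% of 33, and chromosome 9 the highest, 73.2% of 41, against 54.1% of all 658. These are the extremes of 19 small groups. Chromosome 2, with 37.8%, and chromosome 4, with 73.0%, came close to them, and differences between chromosomes were not tested.

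**Figure D5:**
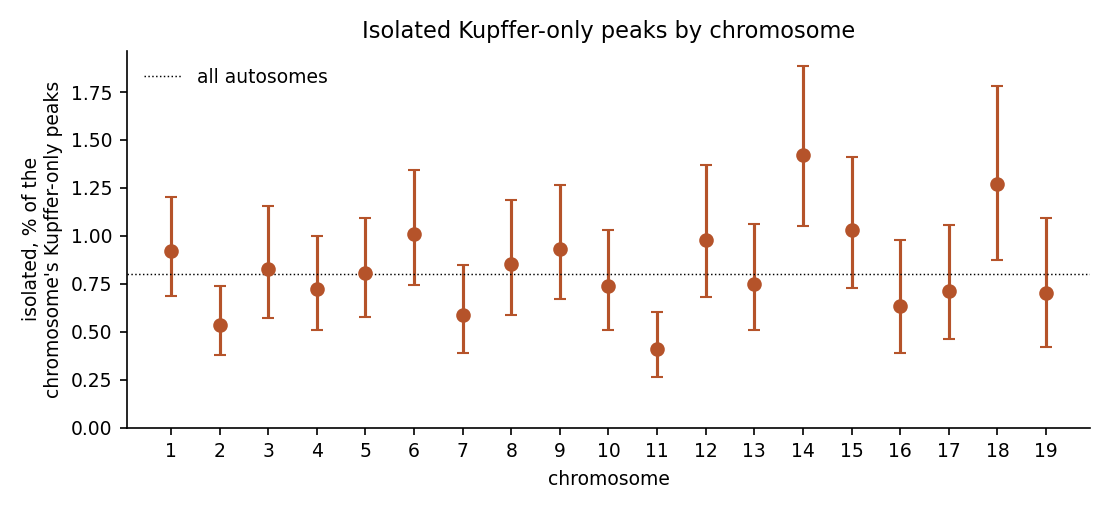
Isolated peaks as a percentage of the Kupffer-only peaks of each chromosome, with exact 95% binomial intervals; the dotted line is the value over chromosomes 1 to 19, 0.803%. Chromosomes 14 and 18 lie above the line and chromosomes 2 and 11 below it with their whole intervals.

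Along the chromosomes, isolated Kupffer-only peaks did not follow the rise of Kupffer-only peaks towards the distal end. With each chromosome divided into 5 equal parts between its first and last site, all Kupffer-only peaks went from 16.7% in part 1, next to the centromere, to 25.5% in part 5. Isolated ones were 21.6% in part 1 (18.5% to 24.9%), 24.3% in part 2 (21.1% to 27.8%), 17.6% in part 3 (14.8% to 20.8%), 16.1% in part 4 (13.4% to 19.1%) and 20.4% in part 5 (17.4% to 23.6%). Isolated endothelial-only peaks ran from 23.0% in part 1 to 18.4% in part 5.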

How the data were processed

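The authors deposited 1 list of ATAC-seq peaks per cell type, with positions alone, in base pairs on mm9 and with no count or score. Per the submitters' processing notes, Bowtie and HOMER were used; versions, the peak threshold, fragment selection and the merging of libraries are unstated in the sources used here. From the lists, overlapping peaks (at least 1 bp) of chromosomes 1 to 19 were joined to sites, and gaps were measured edge to edge with NumPy 2.4.6 and pandas 2.3.3 in Python 3.11.15. A gap of exactly 50 kb counted as within. bedtools 2.31.1 also counted 658 peaks with a window of 50001 bp, which includes that case. With a window of 50000 bp, which does not include it, the count was 659. On simulated data, all 411 planted isolated Kupffer-only peaks were found, with 0 false ones.

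Shares carry exact 95% binomial intervals (Clopper-Pearson, SciPy 1.17.1). These take each peak as independent, so they cover counting error only and not the spread between mice. No p-value was computed. The members, comparison sets and alternatives were chosen with earlier results of these data known. Regions named are the 10 most isolated, the 10 widest, the 3 on each side of the threshold, runs of at least 3, and the 3 highest and lowest chromosomes. Positions are counted from 1. No columns of other series were present. On 10 of 20 chromosomes peaks extended past the end of the GRCm38 gene table, so its coordinates were not used, and no sequence is printed.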

Additional observations from a re-analysis of the deposited data

How the results depend on the processing

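Of 28 alternative values, 15 stayed within 1.5 times a count or within the main interval, and 13 moved further. The number of isolated Kupffer-only peaks was 1935 at 25 kb, 260 at 100 kb, 1105 with only Kupffer and 4814 with only endothelial peaks as neighbours, and 302 for those wider than 151 bp. These changes follow from stricter or looser rules. The Kupffer-only share of isolated restricted peaks was 47.2% at 25 kb, 36.7% at 100 kb, 24.7% and 75.1% with only Kupffer or only endothelial neighbours, and 58.8% with the other list only. At 25 kb the median width was 166 bp and 45.0% of peaks were 151 bp wide. The right neighbour alone was Kupffer-only in 41.5% of cases. For all but the number, the cause was not tested. Measuring from centres, joining peaks within 1 kb, and leaving out 151 bp peaks or the outermost sites gave 663, 713, 646 and 654 peaks and shares between 38.3% and 39.6%. Without 151 bp peaks, 302 of the 646 were among the 658. That is the most possible, since the other 356 members are 151 bp wide and were left out. The settings by width alone, own list and other list were added after seeing the data. No paired analysis was possible because neither list gives a value for any library. Alternatives for sequence and genes were not run. The unknown depth limits what can be said of a missing peak.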

Other observations

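The X chromosome, outside the chromosomes studied above, was treated by the same rule. It had 46 isolated Kupffer-only peaks, or 2.46% of its 1868 Kupffer-only peaks (1.81% to 3.27%), above the interval over chromosomes 1 to 19, 0.743% to 0.866%. Of its isolated restricted peaks 46.9% were Kupffer-only (36.8% to 57.3%), an interval that included the autosomal 39.1%. Of the 46 peaks 20 were 151 bp wide, the median width was 168.5 bp, and the most remote lay 2676 kb from any other peak, farther than any on the autosomes. The mice were male, with a single X chromosome; the part of copy number in these counts was not tested.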
